A study of Mus musculus with 165 samples.

Results

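Heat shock genes encode molecular chaperones, proteins that hold, fold or refold other proteins. The genes described here were 10: Hspa1a and Hspa1b, the heat-inducible cytosolic HSP70 pair; Hspa8, the HSP70 made constantly; Hsph1, the HSP110 that releases nucleotide from HSP70; Hsp90aa1, the inducible cytosolic HSP90; Dnajb1, the J-domain protein that hands clients to HSP70; Hspd1 and Hspe1, the mitochondrial chaperonin and its lid; Hspb1, a small heat shock protein; and Hsf1, the transcription factor that drives the heat shock response. They were chosen by name, with earlier results of these data known. Their rows were those of the brain and liver count tables whose Ensembl identifier belongs to these symbols. Each was found among the 55471 gene identifiers. All 10 passed the filter on low counts in both tissues, which left 18711 genes in brain and 15579 in liver.

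The series holds bulk, poly(A)-selected, strand-specific RNA sequencing of brain and liver from male C57BL/6J/Ukj mice, an inbred laboratory strain; the labels name age as the only difference between groups and no transgene or treatment. Ages were 3, 9, 15, 24 and 28 months, with 15, 16, 16, 17 and 18 brain libraries and 16, 16, 16, 17 and 18 liver libraries. Each library came from 1 mouse, and 82 of the 83 mice had both tissues. Libraries were made in 3 preparations, each of which held every age and tissue.

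In unstressed cells HSF1 is held inactive by chaperones; unfolded protein draws the chaperones away, and freed HSF1 forms trimers that bind heat shock elements, repeats of the letters GAA and TTC, before the chaperone genes. HSP70 works in a cycle with a J-domain partner, which brings the client, and an exchange factor, which lets it go, and it passes some clients to HSP90. Liver and brain both use this system at normal body temperature, and its inducible members also follow body temperature, feeding and time of day.

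Total counts (in mega-counts, M) ran from 11.46 M to 73.4 M per brain library (median 37.6 M) and from 5.82 M to 57.5 M per liver library (median 32.9 M). Replicate 15 of the 28-month brains and replicate 13 of the 24-month brains stood apart, with median correlations of 0.852 and 0.941 with the other brain profiles, and replicate 15 was also the shallowest brain library. It held the highest 28-month brain value of 7 of the 10 genes and the lowest of Hsph1 and Hsf1. Several brain results are therefore also given without these 2 libraries. The 2 liver libraries least like the others were 24-month replicate 13 (0.915) and 28-month replicate 9 (0.922). Hepatocyte markers were present in every liver library, summed over 6 genes to 58437 to 101735 CPM (read counts scaled to the same library total) at 3 months and 20259 to 114487 CPM at 28 months, and 6 neuron markers summed to 5196 to 6631 CPM and 3145 to 6591 CPM in brain at those ages. In liver, all 6 B and plasma cell markers (median summed level 8.56 CPM at 3 and 32.9 CPM at 28 months) and all 6 macrophage markers (215 and 548 CPM) were higher at 28 months. So were 5 of 6 stellate cell and fibroblast markers (294 and 442 CPM), whose summed levels did not overlap between these ages, and 5 of 6 T cell markers (5.50 and 13.9 CPM). In brain all 6 microglia and macrophage markers (254 and 327 CPM) and 4 of 6 red blood cell markers (75.4 and 129 CPM) were higher. The part of these cell types in the results below was not tested. In bulk tissue, fewer cells of a type and less RNA per cell cannot be told apart.

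Promoter sequence was given by RefSeq (mouse build GRCm38.p6, 250 bases before to 50 after the gene start) for 7 of the 10 genes, in 10 entries: Hspa1a, Hspa1b, Hsph1, Dnajb1, Hspd1, Hspe1 and Hspb1. A short heat shock element, GAANNTTC or TTCNNGAA on either strand (each reads the same on both strands), occurred in the promoters of 6 of these 7 genes and in 15.1% of the 32851 mouse promoters given. GAANNTTC alone was in 7.86% and TTCNNGAA alone in 8.52%. The longer element, GAANNTTC followed by NNGAA or TTCNNGAA followed by NNTTC, which contains the short one on either strand, occurred for 3 of the 7 genes, Hsph1, Hspd1 and Hspe1, and in 0.603% of all promoters. No match was found in the windows of Dnajb1. Genes were counted if any of their entries matched, while the shares of all promoters are per entry, so the units differ. The near-identical HSP70 pair is printed first because its members moved together in the data. Hsph1 follows, whose change, like that of other genes of the set, was seen in both tissues. Hspe1, which faces Hspd1 across a shared promoter, is last. Capitals mark the matches. The Hspa1a window is chr17:34972107-34972406, that of Hspa1b chr17:34959189-34959488 and that of Hsph1 chr5:149636287-149636586, all on the minus strand, and that of Hspe1 is chr1:55087898-55088197 on the plus strand.
Hspa1a: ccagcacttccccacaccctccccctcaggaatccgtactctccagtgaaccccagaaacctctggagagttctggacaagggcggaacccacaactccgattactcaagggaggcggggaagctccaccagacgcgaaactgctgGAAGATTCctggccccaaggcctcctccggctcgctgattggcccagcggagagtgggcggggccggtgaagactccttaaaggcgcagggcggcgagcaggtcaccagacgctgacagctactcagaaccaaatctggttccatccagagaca
Hspa1b: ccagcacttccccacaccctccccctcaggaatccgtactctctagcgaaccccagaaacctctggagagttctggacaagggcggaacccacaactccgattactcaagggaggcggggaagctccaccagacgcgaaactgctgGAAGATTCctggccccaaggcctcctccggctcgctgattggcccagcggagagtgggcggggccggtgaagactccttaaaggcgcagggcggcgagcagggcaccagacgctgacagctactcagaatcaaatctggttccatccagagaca
Hsph1: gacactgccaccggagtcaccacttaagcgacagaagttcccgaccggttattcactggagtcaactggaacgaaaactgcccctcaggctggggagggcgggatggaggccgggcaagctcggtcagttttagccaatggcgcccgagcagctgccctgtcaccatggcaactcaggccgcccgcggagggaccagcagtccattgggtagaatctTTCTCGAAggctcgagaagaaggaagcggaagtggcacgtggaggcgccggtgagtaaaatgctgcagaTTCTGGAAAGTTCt
Hspe1: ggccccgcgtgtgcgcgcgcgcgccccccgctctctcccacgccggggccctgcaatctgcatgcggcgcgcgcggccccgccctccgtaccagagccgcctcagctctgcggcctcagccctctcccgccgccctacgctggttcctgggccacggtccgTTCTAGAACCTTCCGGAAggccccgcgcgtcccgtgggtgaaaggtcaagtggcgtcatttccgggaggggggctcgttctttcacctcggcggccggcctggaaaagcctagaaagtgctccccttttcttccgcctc
Hspa1a and Hspa1b agreed at 296 of 300 bases and carried the same single match, GAAGATTC, 104 bases before the start. They differed by C44T, T47C, T249G and C276T, with the Hspa1a base first and positions counted from 1 at the first printed base. In Hspe1 the matches TTCTAGAA, GAACCTTC and TTCCGGAA overlapped in one run and began 89, 84 and 79 bases before the start. The same run, read from the other strand, lay in 1 of the 2 windows of Hspd1 (chr1:55087883-55088182). Hsph1 had TTCTCGAA 33 bases before the start and TTCTGGAA and GAAAGTTC, overlapping, 36 and 41 bases after it.

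By the annotation (GENCODE M21, GRCm38) all 10 are protein-coding. Hspa1a (chr17:34969190-34972156) and Hspa1b (chr17:34956436-34959238) sit 9951 bases apart on the minus strand of chromosome 17. Hspd1 (chr1:55077835-55088243, minus strand) and Hspe1 (chr1:55088132-55091307, plus strand) overlap head to head by 112 bases. Hspa8 is at chr9:40800984-40810087 (plus), Hsph1 at chr5:149614287-149636376 (minus), Hsp90aa1 at chr12:110690605-110702728 (minus), Dnajb1 at chr8:83608193-83612653 (plus), Hspb1 at chr5:135887919-135889563 (plus) and Hsf1 at chr15:76477422-76501913 (plus). Reads from near-identical copies can be split or lost in counting. Of the 100-base stretches of each transcript, 47.1% of Hspa1a and 49.9% of Hspa1b were shared with the other of the pair, 58.5% of Hspa8 with Gm15459, 39.6% of Hsp90aa1 with Gm12346, 42.7% of Hspb1 with Hsp25-ps1, 25.8% of Hspd1 with Hspd1-ps3 and 20.4% of Hspe1 with AC117239.2. Hsph1, Dnajb1 and Hsf1 shared none. The values of the sharing genes, above all those of Hspa1a and Hspa1b taken singly, are therefore uncertain.

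Levels between genes were set side by side only per length, as CPM per kilobase of exon. In brain at 3 months the mean ± SD (n = 15) was highest for Hspa8, 356 ± 34.3 CPM per kilobase, and Hsp90aa1, 253 ± 29.9. Hspd1 (60.2 ± 5.70), Hsph1 (45.02 ± 5.95), Hspe1 (28.9 ± 2.95) and Dnajb1 (18.5 ± 2.81) followed, each apart from the next by more than both SDs. Hsf1 (6.15 ± 0.301), Hspb1 (6.01 ± 2.13), Hspa1b (3.73 ± 1.22) and Hspa1a (2.64 ± 0.717) came last, and neighbours among these 4 did not differ beyond their spread. In liver at 3 months (n = 16) the order was Hspa8 (277 ± 127), Hspd1 (177 ± 16.7), Hspe1 (72.6 ± 10.3), Hsp90aa1 (67.8 ± 37.6), Hspb1 (32.1 ± 22.6), Hsph1 (11.7 ± 8.23), Dnajb1 (9.39 ± 2.29), Hspa1b (8.97 ± 7.35), Hsf1 (2.78 ± 0.252) and Hspa1a (0.453 ± 0.418). There, only Hspd1 against Hspe1 and Hsf1 against Hspa1a were apart by more than both SDs among neighbours. At 28 months Hspa8 still had the highest mean in both tissues, at 312 ± 69.1 in brain and 165.04 ± 37.5 in liver. It was not apart by more than both SDs from the next gene, Hsp90aa1 in brain and Hspd1 in liver. Hspa1b had gone from eighth to ninth in liver, at 0.764 ± 0.587, below Hsf1.

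**Figure D1:**
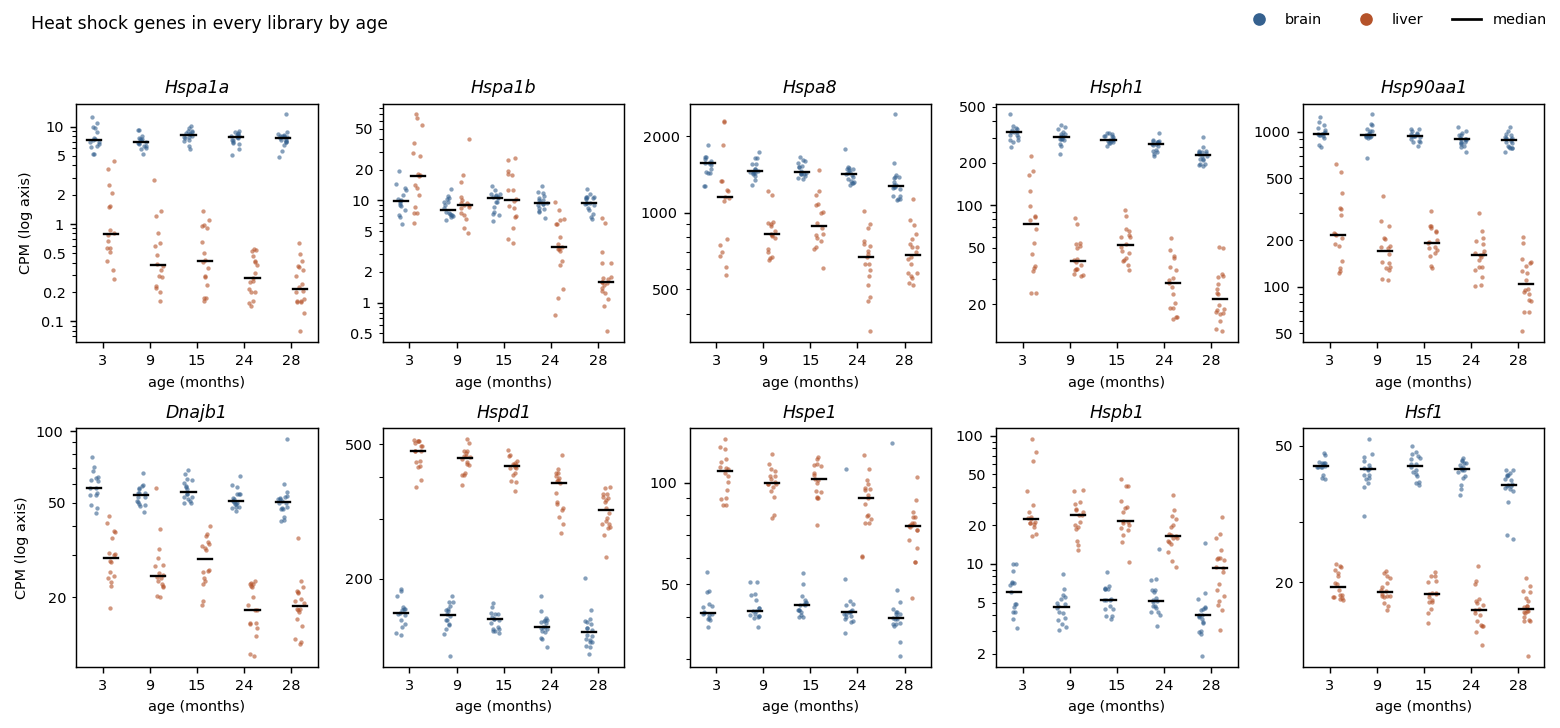
Level of each of the 10 heat shock genes in every library, in CPM on a log axis, by age in months. Points are libraries of brain (blue) and liver (rust), and black bars are medians; the liver median of Hspa1b is 17.4 CPM in the youngest and 1.59 CPM in the oldest group, while in brain it stays between 8.12 and 10.6 CPM at the 5 ages.

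In liver, all 10 genes were lower at 28 than at 3 months, by factors from 1.18 for Hsf1 to 12.0 for Hspa1b. Among all 15579 genes tested, 61.9% were called in either direction, 30% lower and 31.9% higher, so the background of change was high. The median log2 fold change was -0.98 over the 10 genes and 0.01 over all genes. Of the 10 genes, 5 fell by at least 2-fold (Hspa1b, Hspa1a, Hsph1, Hspb1 and Hsp90aa1), as did 2.38% of all tested genes. Tests were edgeR's quasi-likelihood test with preparation as a term and Benjamini-Hochberg adjustment over all genes tested in the tissue, called at an adjusted p under 0.05.

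Of the inducible HSP70 pair, Hspa1b in liver ran from 6.04 to 69.1 CPM at 3 months (median 17.4) and from 0.529 to 6.74 CPM at 28 months (median 1.59). Of the 18 old livers, 17 lay below the lowest young one, so the groups overlapped by a single library. The log2 fold change was -3.58 ± 0.34 (SE; edgeR adjusted p = 8.77e-15). Hspa1a ran from 0.275 to 4.43 CPM at 3 months (median 0.790) and from 0.0797 to 0.644 CPM at 28 months (median 0.216), with 11 of 18 old livers below the lowest young one. Its log2 fold change was -2.30 ± 0.34 (edgeR adjusted p = 2.05e-08), and at 28 months 1 of 18 libraries held 3 counts or fewer. With the counts of the pair summed, which takes out the question of which copy a read belongs to, the log2 fold change was -3.48 ± 0.33 (edgeR adjusted p = 9e-15).

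Hspa8, the constitutive HSP70, ran from 568 to 2305 CPM at 3 months (median 1152) and from 522 to 1130 CPM at 28 months (median 685) in liver. The groups overlapped widely, with 4 of 18 old livers below the lowest young one, but all 18 were below the young median, and the log2 fold change was -0.75 ± 0.14 (edgeR adjusted p = 4.03e-06). Hsph1, its exchange factor, ran from 23.9 to 225 CPM at 3 months (median 73.4) and from 12.9 to 50.4 CPM at 28 months (median 21.7). All 18 old livers were below the young median and 10 below the lowest young liver, with a log2 fold change of -1.78 ± 0.22 (edgeR adjusted p = 2.14e-10). Dnajb1, the J-domain partner, went from 17.9 to 44.0 CPM (median 29.2) to 12.8 to 35.5 CPM (median 18.4). Here 9 of 18 old livers lay below the lowest young one and the log2 fold change was -0.67 ± 0.12 (edgeR adjusted p = 2.26e-06).

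Hsp90aa1 in liver ran from 122 to 624 CPM at 3 months (median 217) and from 51.7 to 210 CPM at 28 months (median 103). All 18 old livers were below the young median, and the log2 fold change was -1.21 ± 0.18 (edgeR adjusted p = 2.09e-08). The small heat shock protein Hspb1 ran from 16.4 to 94.2 CPM (median 22.6) and from 3.08 to 23.2 CPM (median 9.38), with 16 of 18 old livers below the lowest young one and a log2 fold change of -1.74 ± 0.22 (edgeR adjusted p = 2.63e-10). The liver libraries also differed by age in clock genes: the clock output gene Dbp was higher by 2.91 on the log2 scale, Per3 by 3.57 and Ciart by 4.03 at 28 than at 3 months, and Arntl was lower, at -0.94. With a score of 13 clock genes as a covariate all 10 heat shock genes remained lower with an adjusted p under 0.05, Hspb1 at -1.08, Hsp90aa1 at -0.91 and Hspa1b at -3.37. Whether the hour of tissue collection differed between ages was not tested.

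The mitochondrial pair fell by nearly the same factor, 1.47 and 1.46. Hspd1, the chaperonin barrel, ran from 374 to 513 CPM at 3 months (median 478) and from 231 to 374 CPM at 28 months (median 318) in liver. Hspe1, its lid, ran from 85.7 to 135 CPM (median 108) and from 45.4 to 104 CPM (median 74.7). The old and young groups were nearly separate for both, with 17 and 16 of 18 old livers below the lowest young one. The log2 fold changes were -0.56 ± 0.05 for Hspd1 (edgeR adjusted p = 4.8e-14) and -0.54 ± 0.08 for Hspe1 (edgeR adjusted p = 3.26e-09).

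Hsf1, the factor itself, showed the smallest change of the 10 in liver. It ran from 17.8 to 22.6 CPM at 3 months (median 19.4) and from 12.2 to 20.6 CPM at 28 months (median 16.7). Of the 18 old livers, 13 lay below the lowest young one, and the log2 fold change was -0.24 ± 0.05 (edgeR adjusted p = 4.68e-05). Messenger level does not measure the activity of the protein, which is set by trimer formation and modification.

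Within preparations 1, 2 and 3 taken alone, all 10 genes were lower in liver at 28 than at 3 months by the sign of the log2 difference. It was -3.44, -3.01 and -4.37 for Hspa1b, -2.38, -2.41 and -2.14 for Hspa1a and -1.47, -1.31 and -2.49 for Hsph1. It was -0.43, -0.60 and -1.21 for Hspa8, -1.83, -0.94 and -2.37 for Hspb1 and -1.06, -0.85 and -1.67 for Hsp90aa1. For Hspd1 it was -0.53, -0.53 and -0.61.

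**Figure D2:**
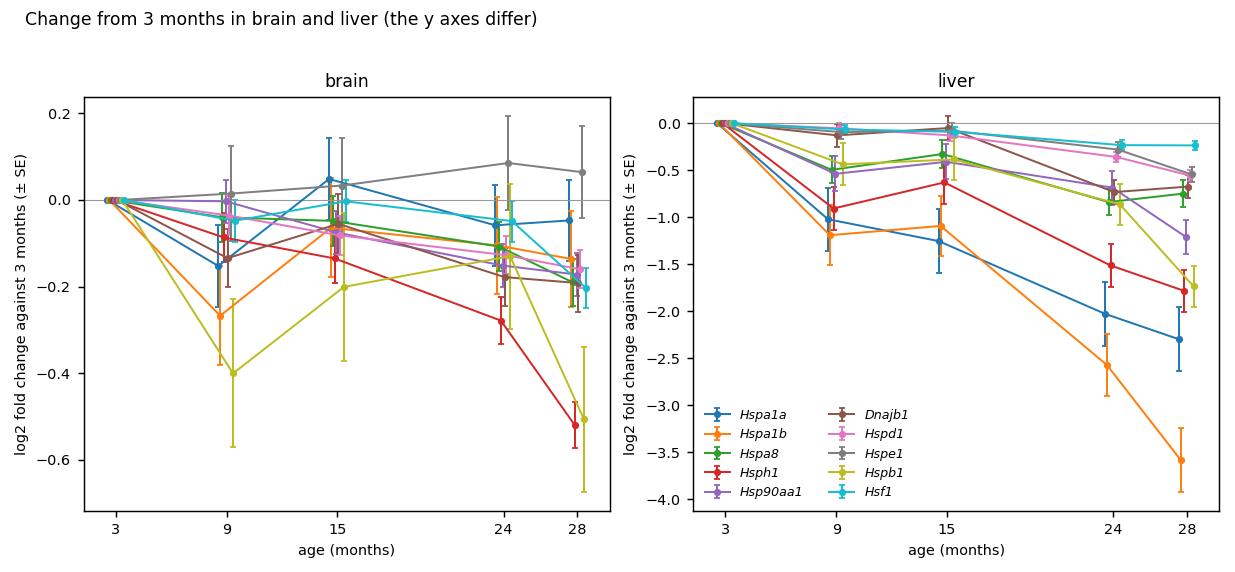
Log2 fold change of each gene against 3 months (y axis, ± SE from edgeR) by age in months, brain on the left and liver on the right, on different y axes. In brain Hsph1 is lowest at 28 months, at -0.52, while in liver Hspa1b goes from -1.09 at 15 months to -2.57 at 24 and -3.58 at 28 months.

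The steps between ages in liver differed in how many of the genes were called. At 9 against 3 months 3 genes were already lower (background 4.69% called, 3.16% lower): Hspa1b at -1.19 ± 0.32 (edgeR adjusted p = 0.0174), Hsph1 at -0.91 ± 0.23 (adjusted p = 0.0104) and Hspa8 at -0.50 ± 0.14 (adjusted p = 0.0308). This early step rested on few libraries, and no heat shock gene was called at it with limma voom or with only the ages compared. When the whole table was refitted without replicate 16 of the 3-month livers none of the 3 was called (adjusted p from 0.0583 to 0.115), without replicate 13 only 1 was, and Hspa8 lost its call also without replicate 10. Replicate 16 held the highest 3-month value of Hspa1b, Hsph1, Hsp90aa1 and Hspb1. At 15 against 3 months Hspa1a (-1.25 ± 0.34, edgeR adjusted p = 0.0132) and Hspa1b (-1.09 ± 0.32, adjusted p = 0.0235) were lower, against 7.32% of all genes called and 4.26% lower, and again only 1 of these was called without replicate 13 or without replicate 16. Between 9 and 15 months no heat shock gene was called, as against 0.0514% of all genes.

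At 24 against 3 months all 10 were lower (49% called, 24% lower), from -0.23 ± 0.05 for Hsf1 to -2.57 ± 0.33 for Hspa1b. At 24 against 15 months 7 were lower (36% called, 14.4% lower): Hspa1b (-1.48 ± 0.32), Hsph1 (-0.88 ± 0.22), Dnajb1 (-0.68 ± 0.12), Hspa8 (-0.51 ± 0.14), Hspd1 (-0.23 ± 0.06), Hspe1 (-0.20 ± 0.08) and Hsf1 (-0.14 ± 0.05). With only the 10 genes refitted, the call on Hspe1 was lost on leaving out any one of 4 libraries (15-month replicates 2 and 8, 24-month replicates 1 and 13), and that on Hsf1 without 15-month replicate 5 or 24-month replicate 15. At 28 against 24 months 5 were lower (15.3% called, 9.13% lower): Hspa1b (-1.01 ± 0.32), Hspb1 (-0.87 ± 0.21), Hsp90aa1 (-0.53 ± 0.18), Hspe1 (-0.26 ± 0.07) and Hspd1 (-0.20 ± 0.05). None of these 5 was called with the clock score as a covariate, Hspa1b lost its call without 24-month replicate 4 and Hsp90aa1 without 24-month replicate 12. Over all ages together all 10 were called, as were 71.5% of genes.

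The young livers also differed among themselves more than the old ones for several genes. The SD of log2 CPM at 3 months was 1.01 for Hsph1, 0.64 for Hspa8 and 0.72 for Hsp90aa1, against 0.42, 0.26 and 0.49 at 9 months and 0.58, 0.31 and 0.53 at 28 months. Replicates 10, 13 and 16 of the 3-month livers were the highest in Hspa8, Hsph1, Hsp90aa1 and Hspb1. In replicate 16 Hsph1 stood at 225 CPM and Hspb1 at 94.2 CPM. Hspd1, Hspe1 and Hsf1 went the other way, with SDs of 0.14, 0.21 and 0.13 at 3 months and 0.18, 0.26 and 0.17 at 28 months. Hspb1 (0.77 and 0.75) and Dnajb1 (0.35 at both ages) hardly differed. These spreads are a description and were not tested.

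**Figure D3:**
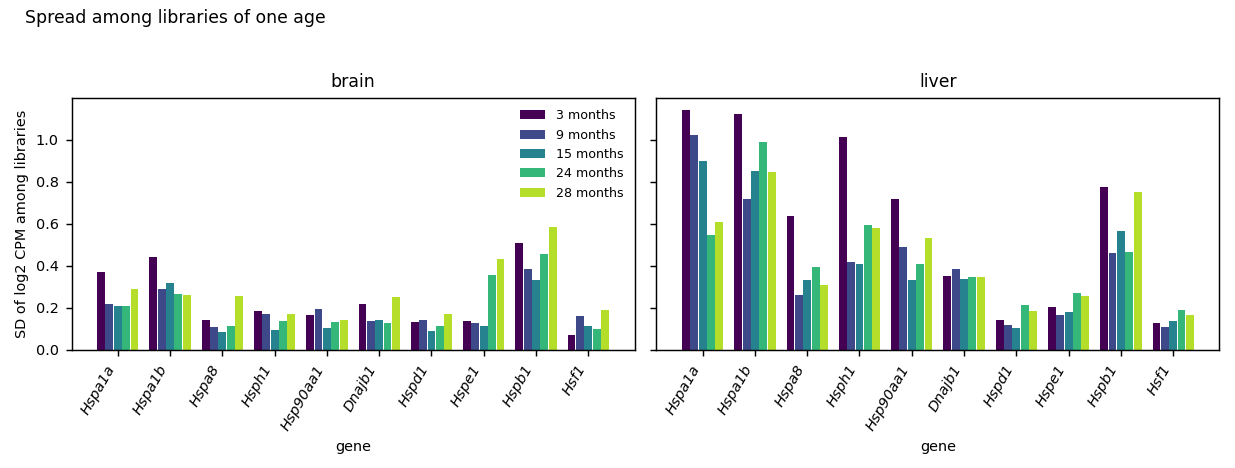
Spread of each gene among libraries of one age, as the SD of log2 CPM (y axis), in brain (left) and liver (right); bars are the ages from 3 (dark) to 28 months (light). Hspa1a and Hspa1b in liver are widest, at 1.14 and 1.12 at 3 months, and most brain bars are under 0.5.

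In brain the changes were smaller and involved fewer genes. At 28 against 3 months 7 of the 10 were lower and none was higher, where 28.3% of 18711 genes were called, 12% lower and 16.3% higher. Fewer of the 10 were called with only the ages compared or in each preparation alone. The median log2 fold change was -0.18 over the 10 genes and 0.01 over all. Hsph1 (-0.52 ± 0.05) and Hspb1 (-0.51 ± 0.17) changed most. The pair Hspa1a and Hspa1b, which fell most in liver, was not called in brain, and neither was Hspe1.

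Hsph1 in brain ran from 258 to 441 CPM at 3 months (median 330) and from 191 to 308 CPM at 28 months (median 228). Of the 18 old brains, 17 were below the lowest young one, and the edgeR adjusted p was 2.69e-12. It was the only one of the 10 called in brain in each preparation alone, at -0.52, -0.42 and -0.60. Its median was 305 CPM at 9, 293 at 15 and 275 at 24 months, and edgeR called it at 24 but not at 9 or 15 against 3 months.

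Among the other cytosolic chaperones, Hspa8 ran from 1272 to 1844 CPM at 3 months (median 1565) and from 1118 to 2436 CPM at 28 months (median 1273) in brain. The highest old value was that of the library that stood apart, 16 of 18 old brains were below the young median, and the log2 fold change was -0.19 ± 0.06 (edgeR adjusted p = 0.00631), or -0.26 without the 2 libraries that stood apart. Hsp90aa1 ran from 799 to 1249 CPM (median 971) and from 738 to 1068 CPM (median 884), with a log2 fold change of -0.17 ± 0.05 (edgeR adjusted p = 0.00522; 0.0601 with the clock score as a covariate). Dnajb1 ran from 45.1 to 77.7 CPM (median 57.6) and from 41.7 to 92.6 CPM (median 50.3), overlapping almost wholly. Its log2 fold change was -0.19 ± 0.07 (edgeR adjusted p = 0.0213), and the call was lost when the table was refitted without replicate 16 or replicate 5 of the 3-month brains (adjusted p = 0.0688 and 0.0516); without the 2 libraries that stood apart it was -0.26. Hspb1 ran from 3.18 to 9.98 CPM (median 6.07) and from 1.92 to 14.6 CPM (median 3.97), with 17 of 18 old brains below the young median (edgeR adjusted p = 0.0167), and its log2 fold change was -0.68 without the 2 libraries that stood apart. Its call was lost when the table was refitted without replicate 16 of the 3-month brains (-0.43, edgeR adjusted p = 0.0516).

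Hsf1 in brain ran from 40.0 to 47.7 CPM at 3 months (median 43.5) and from 26.8 to 42.5 CPM at 28 months (median 38.5). All 18 old brains were below the young median and 12 below the lowest young brain, and the log2 fold change was -0.20 ± 0.05 (edgeR adjusted p = 0.000542). Hspd1 ran from 137 to 187 CPM (median 158) and from 120 to 201 CPM (median 138), with a log2 fold change of -0.16 ± 0.04 (edgeR adjusted p = 0.00352). Its partner Hspe1 ran from 37.2 to 54.4 CPM (median 41.0) and from 30.6 to 131 CPM (median 39.8), and its log2 difference was 0.06 ± 0.11 (edgeR adjusted p = 0.684). The top value of 131 CPM, and that of 110 CPM at 24 months, were those of the 2 libraries that stood apart, and without them the difference was -0.10.

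The inducible HSP70 pair did not pass the test in brain. Hspa1a ran from 5.22 to 12.6 CPM at 3 months (median 7.35) and from 4.90 to 13.3 CPM at 28 months (median 7.72), a log2 difference of -0.05 ± 0.09 (edgeR adjusted p = 0.733). Hspa1b ran from 5.93 to 19.4 CPM (median 9.91) and from 6.64 to 12.9 CPM (median 9.43), a log2 difference of -0.14 ± 0.11 (edgeR adjusted p = 0.370). The old and young groups overlapped over almost their whole range, and the summed pair gave -0.10 ± 0.10.

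In preparations 1, 2 and 3 alone the 7 genes called in brain kept a negative sign. The log2 difference was -0.23, -0.16 and -0.20 for Hsf1, -0.15, -0.18 and -0.18 for Hsp90aa1 and -0.19, -0.18 and -0.11 for Hspd1. It spread more for Hspb1 (-0.76, -0.50 and -0.26), Hspa8 (-0.28, -0.21 and -0.09) and Dnajb1 (-0.17, -0.32 and -0.11). Preparation 3 holds the library of 28-month replicate 15 and gave Hspe1 at 0.39, against -0.16 and -0.05 in the others. With the clock score as a covariate Hspb1 stood at -0.78 and Dnajb1 at -0.31.

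At earlier steps in brain, 24 against 3 months gave 3 calls, all lower (10.1% called, 3.86% lower): Hsph1 at -0.28 ± 0.05 (edgeR adjusted p = 0.000165), Hsp90aa1 at -0.15 ± 0.05 (adjusted p = 0.0352) and Hspd1 at -0.13 ± 0.04 (adjusted p = 0.0491). The last was at the threshold and lost its call, with only the 10 genes refitted, on leaving out any one of 55 of the 82 libraries, and Hsp90aa1 lost its call on leaving out any one of 6. At 28 against 24 months 1 gene, Hsph1, was lower with all libraries (-0.24 ± 0.05, edgeR adjusted p = 0.00832; 1.09% called, 0.561% lower), and 4 were called without the 2 libraries that stood apart. At that step no heat shock gene was called with only the ages compared or in any preparation alone. With only the 10 genes refitted, leaving out 28-month replicate 15 alone added calls on Hspa8 (-0.15) and Hspb1 (-0.54). No heat shock gene was called by edgeR at 9 or 15 against 3 months, 15 against 9 or 24 against 15 months, where 0.315%, 0.871%, 0% and 0.732% of genes were. Over all ages together 5 were called (Hsph1, Hsf1, Hsp90aa1, Hspd1 and Hspa8), as were 20.6% of genes.

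The difference between tissues was tested directly, in one edgeR fit over the libraries of both tissues and the 14035 genes tested in both. From 3 to 28 months the change was lower in liver than in brain for 9 of the 10 genes, where 49.2% of genes differed and 21.9% went lower in liver. The differences ran from -0.36 ± 0.07 for Hspd1 to -3.40 ± 0.34 for Hspa1b, with a median of -0.78 over the 10 genes and 0.03 over all. Hsf1 was the exception: its changes in both tissues differed by 0.01 ± 0.07 (edgeR adjusted p = 0.954). From 3 to 24 months it was again lower in liver for 9 of 10 (29.7% differed, 11.6% lower in liver), and Hsf1 at -0.16 ± 0.07 did not pass (edgeR adjusted p = 0.0745). With the mouse as a block the 24-month difference was not called for Hsp90aa1 (-0.40, edgeR adjusted p = 0.0812) or Hspe1 (-0.28, edgeR adjusted p = 0.112).

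Set against each other at 3 months, with TMM scaling over both tissues together, all 10 differed between the tissues, as did 90.1% of genes. Liver was higher in Hspb1 (log2 difference 3.00 ± 0.21), Hspd1 (2.17 ± 0.05), Hspe1 (1.94 ± 0.10), Hspa1b (1.87 ± 0.25) and Hspa8 (0.24 ± 0.11), and lower in Hspa1a (-1.96 ± 0.22), Hsph1 (-1.34 ± 0.17), Hsp90aa1 (-1.30 ± 0.14), Hsf1 (-0.53 ± 0.05) and Dnajb1 (-0.37 ± 0.10). At 28 months (90.4% of genes called) all 10 still differed, but 2 had changed sides under that scaling. Hspa1b was then lower in liver, at -1.52 ± 0.24 (edgeR adjusted p = 2.77e-09), and so was Hspa8, at -0.27 ± 0.10 (adjusted p = 0.00981), whose 3-month difference was not called with the mouse as a block (0.15 ± 0.10, edgeR adjusted p = 0.175). Scaled within each tissue, mean Hspa8 at 3 months was 1533 CPM in brain and 1191 CPM in liver. The side on which Hspa8 was higher at 3 months thus depended on the scaling. Hspa1a in liver was 18.1-fold below brain at 28 months, against 3.90-fold at 3 months. The mitochondrial pair and Hspb1 remained higher in liver, at 1.81 ± 0.05 for Hspd1, 1.38 ± 0.09 for Hspe1 and 1.83 ± 0.20 for Hspb1.

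Within one tissue, libraries of the same age and preparation also varied. After the mean of each age and preparation was taken off, 43 of the 45 gene pairs in liver had a positive Pearson r over 83 libraries, with a median of 0.43 and 14 pairs at 0.5 or more. The share of all tested genes with as high an r ran from 0.00642%, for Hspa8 with Hsph1 and Hspa1a with Hspa1b, to 69.6% for Hspa1a with Hspd1, and was 22.1% for Hspa8 with Hspd1. All such values are descriptions; the points share their library and its depth, and no p is given. Hspa8 and Hsph1 had r = 0.86 (Spearman rho 0.81), Hsph1 and Hsp90aa1 0.83 (rho 0.80), Hspa1b and Dnajb1 0.77 (rho 0.80) and Hspa1a and Hspa1b 0.73 (rho 0.72). In each preparation alone these 4 stayed positive, between 0.50 and 0.91. Hspd1 and Hspe1 had r = 0.72 (rho 0.61). Against the other 8 genes r ran from -0.17 to 0.21 for Hspd1 and from 0.02 (Hsf1) to 0.47 (Hspb1) for Hspe1, and no grouping was tested.

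In brain, without the 2 libraries that stood apart, 40 of 45 pairs were positive (median 0.32; 36 with all 82 libraries). The share of all tested genes with as high an r ran from 0% for Hspa1a with Hspa1b to 97.1% for Hsp90aa1 with Hsf1, and was 23.6% for Hspa8 with Hspe1. Hspa1a, Hspa1b, Dnajb1 and Hspb1 had r from 0.61 to 0.80 with each other. Hspa8, Hsph1, Hsp90aa1 and Hspd1 had r from 0.77 to 0.90, led by Hsp90aa1 with Hspd1 at 0.90 and Hspa8 with Hsph1 at 0.87. The last was 0.42 with all libraries. Between these 2 sets of 4 genes r ran from -0.04 for Hsp90aa1 with Hspb1 to 0.54 for Hspa1b with Hsph1, and no grouping was tested. Hsf1 had r = -0.59 with Hsp90aa1, -0.49 with Hspd1, -0.20 with Hspa8 and -0.18 with Hsph1, and from 0.18 (Dnajb1) to 0.31 (Hspb1) with the other 5.

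**Figure D4:**
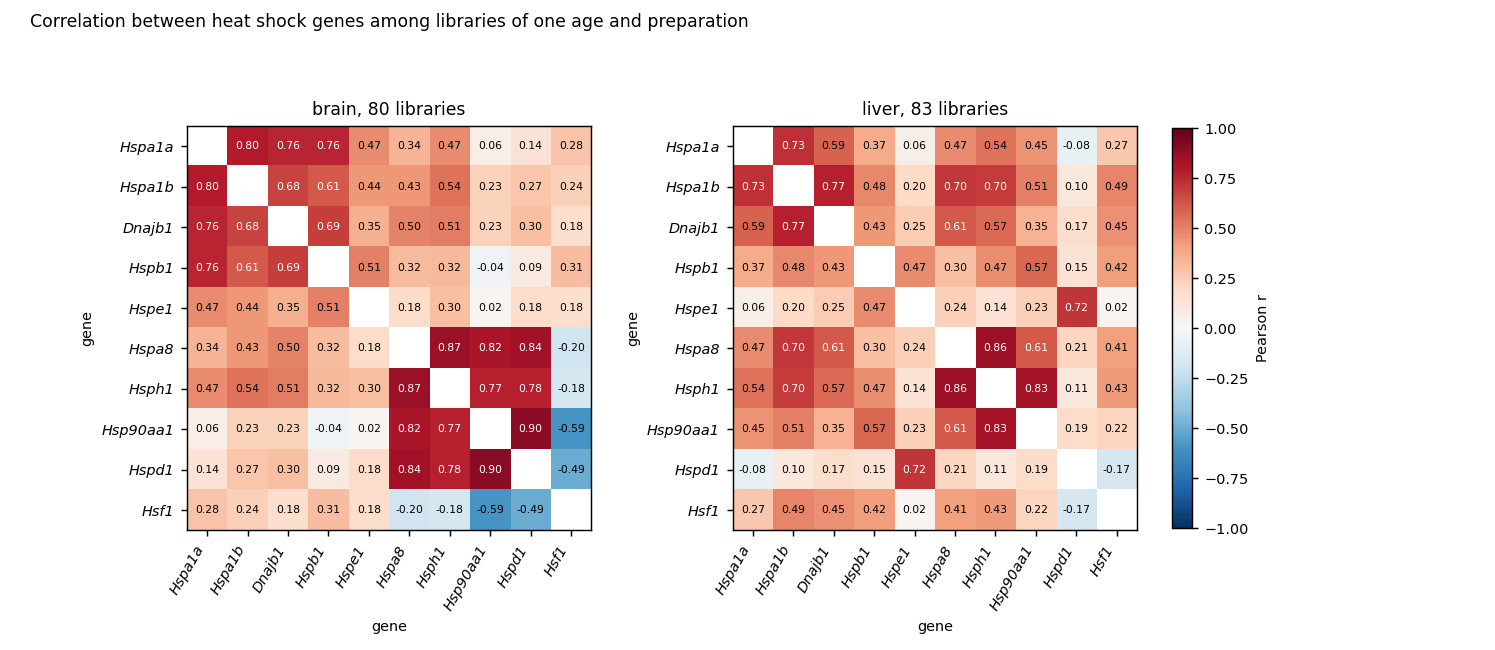
Pearson r between each pair of the 10 genes (both axes) over libraries, after the mean of each age and preparation was removed, in brain without 2 libraries that stood apart (left, 80 libraries) and in liver (right, 83 libraries). Red is positive and blue negative; among the high values are Hspa1a with Hspa1b (0.80) and Hsp90aa1 with Hspd1 (0.90) in brain and Hspa8 with Hsph1 (0.86) in liver.

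The cold-inducible RNA-binding protein gene Cirbp, which rises as cells cool, was set against the 10 genes in the same libraries. Its r was negative with all 10 in liver, with 8 in brain, and with 9 in brain without the 2 libraries that stood apart. In brain its r with Hsph1 was -0.83 (rho -0.81, 82 libraries), and without the 2 libraries that stood apart it was -0.83 with Hsph1, -0.77 with Hspa8, -0.70 with Hsp90aa1 and -0.69 with Hspd1. With all 82 libraries the last 3 were -0.15, -0.58 and -0.26, and the positive values were 0.43 with Hspe1 and 0.06 with Hspb1. Without the 2 libraries it was 0.24 with Hsf1, and from -0.06 (Hspe1) to -0.55 (Dnajb1) with the other 5 genes. In liver it was -0.69 with Dnajb1 (rho -0.67), -0.63 with Hspa1b (rho -0.64) and -0.56 with Hspa8 and Hsph1, and ran from -0.10 (Hspe1) to -0.48 (Hsp90aa1) with the other 6. The share of all genes with as low an r was not computed. Cirbp also rose with age in both tissues, with a log2 fold change at 28 against 3 months of 0.81 ± 0.09 in brain and 1.00 ± 0.11 in liver, and its relative Rbm3 by 0.60 ± 0.12 and 1.32 ± 0.10 (edgeR adjusted p from 7.42e-05 to 5.54e-18). Whether body or tissue temperature moved with these genes was not tested.

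The genes whose pattern was most like that of 4 of the heat shock genes were sought over all tested genes other than the 10 themselves, by Pearson r of log2 CPM less the mean of age and preparation. For Hspa1b in liver (83 libraries) they were Bag3, the HSP70 cochaperone, at 0.80, then Ccdc117 (0.76), Zscan22 (0.76) and Mtf1 (0.74). In brain (82 libraries) they were Dnaja4, a J-domain protein, at 0.68, Hspa5, the HSP70 of the endoplasmic reticulum, at 0.63, Stip1, which links HSP70 to HSP90, at 0.62 and Sdf2l1 (0.61). For Hspa8 they were Chordc1 (0.83), an HSP90 cochaperone, Dnaja1 (0.82), Gm15459 (0.80), which shares sequence with Hspa8, and Nus1 (0.77) in liver, and Calr (0.91), Tmx2 (0.86), Hacd3 (0.85) and Rufy3 (0.85) in brain. Without the 2 libraries that stood apart the brain values for Hspa8 were lower, at 0.82, 0.76, 0.71 and 0.69 in the same order. For Hspd1 they were Skp1a (0.80), Ndufs1 (0.78), Dld (0.78) and Dars (0.77) in liver, and Zc3h15 (0.89), Cct6a (0.87), Gpbp1 (0.85) and Hsp90b1 (0.83) in brain. For Hsf1 they were Lrrc47 (0.74), Mta2 (0.71), Ccdc97 (0.70) and E2f4 (0.67) in liver, and Cxxc1 (0.86), Gtpbp3 (0.82), Cherp (0.82) and Capn15 (0.82) in brain.

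Brain and liver of the same mouse could be set side by side for 82 mice, asking whether a mouse that was high in one tissue for its age was high in the other. After the mean of age and preparation was removed, and with p from 100000 permutations of the livers within age and preparation adjusted over 14035 genes, 3 of the 10 genes were called, all positive, where 1.69% of genes were called and 1.04% positive. Hspa1a had r = 0.48 (rho 0.40, permutation p = 0.0001, adjusted p = 0.0149; 0.0541 for the rank correlation), Dnajb1 r = 0.43 (rho 0.49, permutation p = 0.00017, adjusted p = 0.0206) and Hsph1 r = 0.44 (rho 0.44, permutation p = 0.00076, adjusted p = 0.0474). Hspa1b, at r = 0.42 (rho 0.36), had an adjusted permutation p of 0.0532. The median r was 0.28 over the 10 genes and -0.01 over all genes. Hspb1 (0.32), Hspa8 (0.23), Hsp90aa1 (0.21), Hsf1 (0.06), Hspd1 (-0.09) and Hspe1 (-0.27) were not called. Without the 2 mice whose brain libraries stood apart Hspb1 had r = 0.44 and an adjusted permutation p of 0.0435, and was called.

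For the 4 genes with the highest r the within-mouse value was positive in each preparation, with different sizes. Over 28, 28 and 26 mice r was 0.26, 0.69 and 0.34 for Hspa1a, 0.46, 0.63 and 0.29 for Dnajb1, 0.32, 0.58 and 0.33 for Hsph1 and 0.18, 0.68 and 0.32 for Hspa1b, and no preparation alone gave a call. Without the 2 mice farthest from the median in brain, r was 0.51, 0.47, 0.48 and 0.35 for the same genes. Of the other 6, Hspb1 (0.41, -0.03 and 0.57), Hsp90aa1, Hspd1 and Hsf1 changed sign between preparations. With additive effects of age and preparation and the clock score of each tissue removed instead, r was 0.46 for Hspa1a, 0.44 for Dnajb1, 0.54 for Hsph1 and 0.38 for Hspa1b (adjusted permutation p = 0.0196, 0.00859, 0.00685 and 0.0632). Brain and liver of a mouse share its collection and its preparation.

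**Figure D5:**
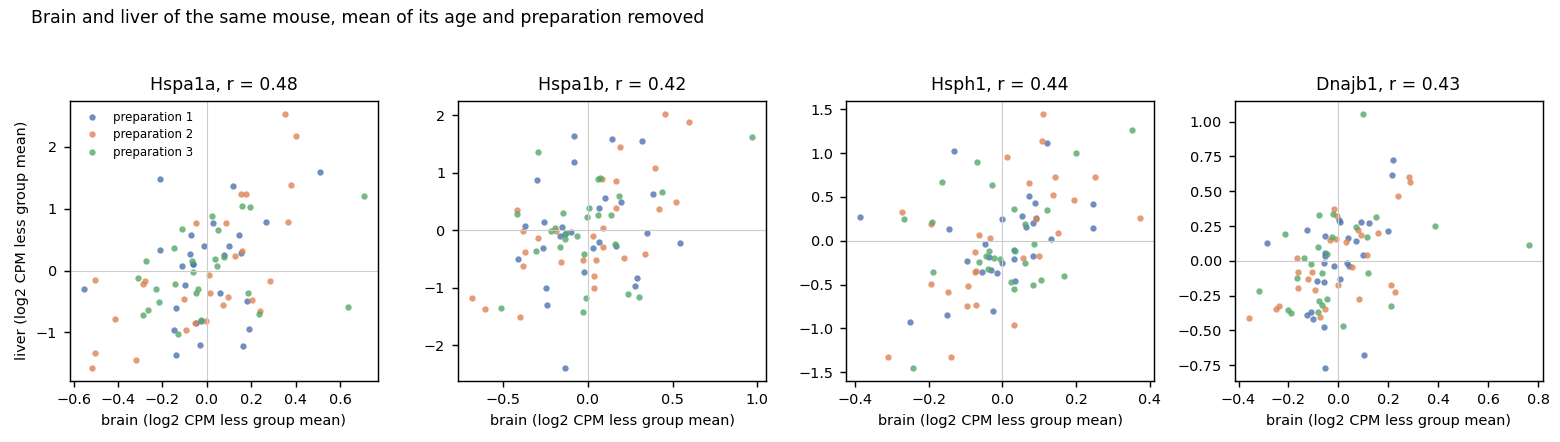
Each point is 1 of 82 mice, with its brain level on the x axis and its liver level on the y axis, both in log2 CPM less the mean of its age and preparation; colours are the 3 preparations. From left to right the genes are Hspa1a (r = 0.48), Hspa1b (0.42), Hsph1 (0.44) and Dnajb1 (0.43), and in each the points rise, with wide scatter, from lower left to upper right.

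The wider chaperone network was read from gene lists with these 10 genes taken out, at 28 against 3 months. The lists share genes, among them Chordc1, Stip1, Hsp90ab1, Hyou1, Hspa5 and Bag3, so their counts are not separate results. In liver, where 30% of all genes were called lower and 31.9% higher, the lists had these counts. Of 12 other textbook HSF1 targets 11 were lower and none higher (median -0.64, all genes 0.01), led by Chordc1 (-0.92 ± 0.12), Dnaja1 (-0.90 ± 0.13) and Stip1 (-0.79 ± 0.11). All 6 other HSP110 and HSP90 genes were lower, with Hyou1 at -0.84 ± 0.21, and 11 of 14 HSP90 cochaperones were, with Fkbp5, a glucocorticoid-responsive one, the 1 higher (1.246 ± 0.214). Of 21 other J-domain genes 11 were lower and 5 higher, Dnajc12 most (1.09 ± 0.31), and of 10 HSP70 exchange factors and partners 7 were lower, Bag3 most (-0.75 ± 0.15). All 14 chaperones of the endoplasmic reticulum were lower, Creld2 most (-1.19 ± 0.29).

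In the other compartments of liver, 7 of 8 other mitochondrial chaperones and proteases were lower, with the protease subunit gene Clpx at -0.90 ± 0.14, and 12 of 14 subunits of the TRiC chaperonin and prefoldin were, with Cct3 at -0.51 ± 0.07 and 1, Pfdn5, higher (0.12 ± 0.05). The other HSP70 genes were mixed, with 4 of 7 lower and 2 higher: Hspa5 stood at -0.68 ± 0.18 and Hspa2 at 0.68 ± 0.15. Of 5 other heat shock factors and regulators tested 2 were lower and 1 higher: Hsf2bp rose from 0.483 to 4.91 CPM on average (log2 fold change 3.35 ± 0.19, edgeR adjusted p = 9.33e-26), and Hsp90ab1, the constant HSP90, was at -0.48 ± 0.07. Of 5 other small heat shock genes tested 1 was lower, Hspb6 (-0.59 ± 0.09), and 1 higher.

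In brain 12% of all genes were called lower and 16.3% higher, and the counts of several lists lay near those shares. Of 12 other HSF1 targets 7 were lower, 5 of 6 other HSP110 and HSP90 genes were lower, with Hspa4 at -0.25 ± 0.04, and so were 10 of 14 endoplasmic reticulum chaperones, with Sdf2l1 at -0.59 ± 0.12. HSP90 cochaperones had 5 of 14 lower, among them Chordc1 (-0.44 ± 0.07) and Stip1 (-0.31 ± 0.04), and 1 higher. Other J-domain genes had 6 of 21 lower and 2 higher, with Dnajb5 at -0.41 ± 0.05, which in liver was higher (0.33 ± 0.09). Other HSP70 genes had 1 of 8 lower, Hspa5 (-0.48 ± 0.08), and mitochondrial ones 1 of 8 lower and 1 higher, Clpp (0.68 ± 0.22). No subunit of TRiC and prefoldin was lower and 3 of 14 were higher, Pfdn5 most (0.60 ± 0.18). Exchange factors and partners had 2 of 10 lower and 2 higher, small heat shock genes 2 of 7 higher, with Hspb6 at 0.40 ± 0.09, and other heat shock factors and regulators 1 of 6 lower and 2 higher, with Hsf4 at 0.32 ± 0.09.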

How the data were processed

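The deposited files hold raw gene counts made by the authors, 1 table per tissue. Per the submitters' processing notes, cutadapt 2.8, HISAT2 2.1.0, SAMtools 1.9 and featureCounts (Subread 2.0.1) were used, with GRCm38.p6 (mm10). The strand setting and the handling of reads shared between genes are not given in the sources used here, so counts of overlapping or near-identical genes are uncertain. Genes were filtered with filterByExpr by age, scaled by TMM and tested with edgeR 4.0.16 (R 4.3.3), with age and preparation as terms, over all genes of a tissue. P-values were adjusted by Benjamini and Hochberg and called under 0.05. Log2 CPM used a prior count of 2, and 3 counts served as the floor. The tissues were compared in 1 edgeR fit of 14035 genes with preparation within tissue. Within-mouse correlations used 100000 permutations (Python 3.11.15, numpy 2.4.6), whose smallest p is 1e-05. The labels do not say whether the mice of a group shared cages or litters.

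The 10 genes and all gene lists were chosen with earlier results of these data known. Genes of the wider lists were named by rule: up to 3 called genes with the highest and 3 with the lowest log2 fold change per list and tissue, with a mean of at least 1 CPM. Brain and liver with 1 age and number came from 1 mouse, which pairs them; the consensus within-mouse correlation in limma 3.58.1 was -0.0055. Alternatives were DESeq2 1.42.0, limma voom, other scaling, filters and covariates, replicate and mouse blocks, each preparation alone and each library left out. On simulated brain data for 28 against 3 months (18655 genes), edgeR recovered 18% of genes changed 1.15-fold and 96% of those changed 2-fold, and 5.19% of its calls were on unchanged genes. On simulated liver data (15514 genes) these were 20.4%, 80% and 2.63%. In the simulation few genes were changed, at 28 months only, and each gene had the same mean in all preparations. It gave 135 calls in brain and 114 in liver. In the data 5291 and 9639 genes were called, so these rates do not give the recovery there. The result of 1 gene of the wider lists is not reported here.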

Additional observations from a re-analysis of the deposited data

Results flagged for a closer look

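The change with age differed between liver and brain for 9 of the 10 genes, by the test of the difference itself (liver minus brain, log2 scale, edgeR's quasi-likelihood test with Benjamini-Hochberg adjustment). Of 14035 genes tested in both tissues, 49.2% differed from 3 to 28 months, with 21.9% lower in liver. From 3 to 24 months 29.7% differed, with 11.6% lower in liver. From 3 to 28 months the difference was -3.40 for Hspa1b, -2.22 for Hspa1a, -1.22 for Hsph1, -1.17 for Hspb1, -0.996 for Hsp90aa1, -0.57 for Hspe1, -0.51 for Hspa8, -0.44 for Dnajb1 and -0.36 for Hspd1. From 3 to 24 months it was -2.43 for Hspa1b, -1.95 for Hspa1a, -1.20 for Hsph1, -0.70 for Hspa8, -0.69 for Hspb1, -0.52 for Dnajb1, -0.50 for Hsp90aa1, -0.33 for Hspe1 and -0.20 for Hspd1. Adjusted p ran from 9.4e-16 to 0.00525 at 28 months and from 4.08e-09 to 0.0471 at 24 months. The 24-month differences of Hspb1, Hspe1 and Hsp90aa1 had adjusted p of 0.0471, 0.0393 and 0.032, near the threshold. With the mouse as a block, Hsp90aa1 and Hspe1 lost the call at 24 months (-0.40 and -0.28, adjusted p = 0.0812 and 0.112).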

How the results depend on the processing

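In liver at 28 against 3 months all 10 genes were called under each alternative run with all 3 preparations, except 9 with the stricter filter (mean level 1 CPM or more), which leaves Hspa1a untested; preparations 1 and 2 alone called 8 and 6. Over all ages preparations 1 and 2 gave 7 and 6 of the 10. Preparations 1, 2 and 3 alone called 2, 6 and 10 genes at 24 against 3 months, 0, 4 and 1 (of 7) at 24 against 15 months, 3, 0 and 0 (of 5) at 28 against 24 months and 0 each at 9 and 15 against 3 months. With limma voom 0 genes were called at 9 against 3 months and 1 at 15 against 3 months, with the stricter filter 1 at 15 against 3 months, and with only the ages compared 0 at both. With the clock score 0 were called at 28 against 24 months. Each library was first left out with only the 10 genes refitted, keeping the dispersion, prior and p threshold of the full fit. The whole table was then refitted without the libraries that most often ended a call or moved it by over 1.5 times there (11 in liver, 12 in brain), and the liver refits gave 0 to 3 calls at 9 against 3 months and 1 to 2 at 15 against 3 months. With only the 10 genes refitted, leaving out 1 library started calls: at 9 against 3 months for Hspa1a (11 libraries) and Hsp90aa1 (5), at 15 against 3 months for Hsph1 (4), and at 24 against 15 months for Hspb1 (2) and Hspa1a (1).

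In brain at 28 against 3 months 7 calls became 4 with only the ages compared and 3, 1 and 1 in preparations 1, 2 and 3. At 24 against 3 months 3 became 5 with library size as a covariate, with voom or without the 2 least similar libraries, 1 with the stricter filter or no preparation term, 0 in each preparation, and 1 to 2 in the 12 whole-table refits; with only the 10 genes refitted Dnajb1 gained a call without any one of 5 libraries, and at 28 against 24 months Hsf1 did without any one of 3 and Hspa8 and Hspb1 without 1. At 28 against 24 months 1 became 2 with DESeq2, 3 with the clock score, 4 with voom or without the 2 least similar libraries, and 0 with only the ages compared or in each preparation. Voom called 1 gene at 24 against 15 months. Over all ages 5 became 3 with the stricter filter and 2, 0 and 1 in the preparations. Hspa1a at 28 against 3 months, not called, turned to 0.026 with voom and 0.11 in preparation 3, and ran from -0.048 to 0.022 in the whole-table refits and from -0.101 to 0.0226 over all 82 libraries left out in turn (highest without 3-month replicate 16, lowest without 28-month replicate 15). Hspe1, not called, turned to -0.16 with the clock score, -0.12 with library size, -0.059 with voom, -0.16 and -0.054 in preparations 1 and 2, and -0.10 without the 2 least similar libraries, an alternative chosen after seeing the data. The cause of these changes was not tested. The within-mouse count of 3 became 0 in each preparation, which hold fewer mice.

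Replicate numbers are shared across ages in the labels but mark different mice: same-numbered libraries had a median r of 0.017 in brain and 0.0087 in liver. With the replicate number as a block, brain calls were 1 at 24 against 3 months, 2 at 28 against 24 months and 3 over all ages, against 3, 1 and 5 without it. The mouse as a block over both tissues changed no direction and left 7 tissue differences called at 24 months and 9 at 28 months.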
